A study of Mus musculus with 4 samples.

Results

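Exonic circular RNAs (circRNAs) read in both total RNA libraries of differentiated C2C12 cells are described here. A circle was an exonic circle where the deposited lists give it the type circRNA, and it was identified by its chromosome, start, end and strand. The rule asked for at least 1 back-splice read in each of the 2 total RNA libraries. It chose 519 circles, of 3369 exonic circles listed in either total RNA library (15.4%) and of 4074 in the whole series, which lists 69136 circles of any type. The other 2850 were listed in only 1 of these libraries, 1548 in total RNA 1 and 1302 in total RNA 2, and they serve as the comparison. The circles were thus chosen by their read numbers in total RNA, so those numbers are given as a description with no test. Exon structure, flanking introns and reads in the other libraries were not used by it.

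A circRNA forms when the spliceosome joins the 5′ splice site at the end of an exon to the 3′ splice site at the start of the same or an earlier exon. The read across that back-splice junction is what sets it apart from the linear transcript. Long introns on both sides, often with inverted repeats that can pair, are known to favour back-splicing, and many circles begin at the second exon of their gene. The first exon of a transcript has no 3′ splice site and the last exon has no 5′ splice site, so standard back-splicing joins internal exons. Circles have no free ends, which makes them resistant to the exonuclease RNase R. They build up in cells that have stopped dividing, muscle cells included.

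C2C12 cells are a line of mouse myoblasts, muscle precursors that form multinucleate myotubes once serum is withdrawn. They had grown dense and were then given 2% horse serum for 3 to 4 days. The total RNA group holds 2 untreated libraries, which the labels call Control. The RPAD group holds 2 libraries of RNA from which linear molecules were removed by RNase R digestion for 30 min, polyadenylation of what was left and depletion of poly(A)+ RNA. All 4 were depleted of ribosomal RNA. One step of the labels' protocol speaks of HeLa RNA although every sample is labelled C2C12, and this was not resolved. The transcripts in the lists carry no gene symbols, so markers of myotubes were not checked and circles are given by mm9 position, counted from 1.

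The libraries held 35981 to 38850 back-splice reads in total RNA and 150478 to 191246 in RPAD, of which 15392 and 16179 and then 55971 and 91868 lay on exonic circles. Fewer exonic circles were listed in RPAD (499 and 777) than in total RNA (2067 and 1821). Separate cultures are not stated for the libraries of a group, so the spread between them, and the p-values that rest on it, may be technical. The cDNA was amplified and PCR copies were not marked, so the exact Clopper-Pearson 95% intervals below cover counting error only.

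The 519 circles made up 25.1% of the exonic circles of total RNA 1 (95% interval 23.3 to 27.0) and 28.5% of those of total RNA 2 (26.4 to 30.6). They held 9920 and 9782 reads, 61.3% and 63.6% of exonic reads. Their median was 6 reads in each library, with quartiles of 2 and 15 in total RNA 1 and 2 and 16 in total RNA 2. Circles of 1 library only had a median of 2 reads and a highest value of 112 and 95. The 10 circles with most reads held 33.4% and 32.9% of the reads of all 519. At the lower edge, 32 circles had 1 read in each library, 142 had 1 read in at least 1 of them, and 37 had 1 read in one and 5 or more in the other.

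**Figure D1:**
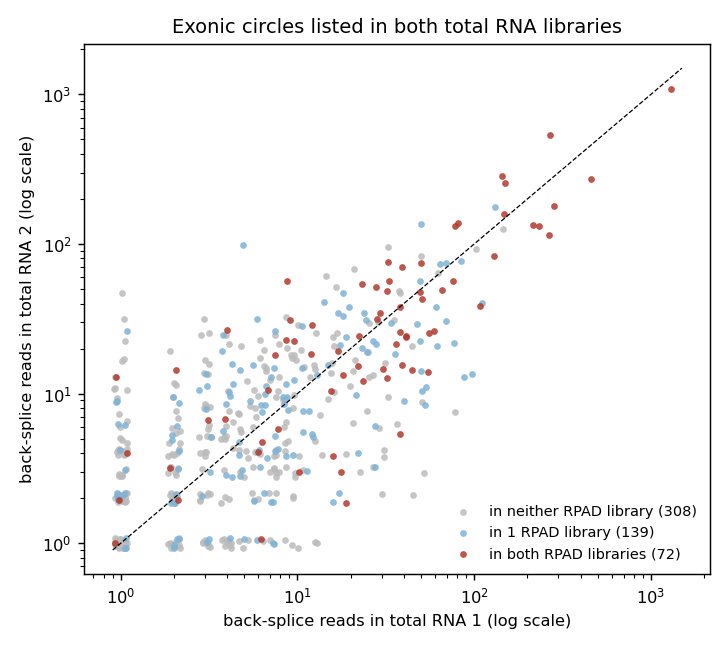
Back-splice reads of the 519 exonic circles in total RNA 1 (x axis) and total RNA 2 (y axis), both on log scales, with a small random shift so that equal values do not overlap. Each point is a circle, coloured by the number of RPAD libraries that list it (308 in neither, 139 in 1, 72 in both), and the dashed line marks equal reads. Of the 67 circles with at least 20 reads in each library, 15 differ by more than 2-fold as shares of exonic reads. That condition leaves out circles with few reads in 1 library.

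The highest mean share of exonic reads belonged to a chromosome 2 circle (76691662 to 76694423, minus strand), which joins 5 exons into 414 nt. Total RNA 1 and 2 gave it 1212 and 1093 reads. The next 2 circles begin at the same exon of the same transcript. That from 76685445 to 76694423 (18 exons, 1878 nt) had 265 and 496 reads, and that from 76688627 to 76694423 (10 exons, 948 nt) had 428 and 270. These 3 circles differ only in the donor used, and their order after the first is not the same in both libraries.

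Of the other 7 leading circles, 4 begin at exon 2. On chromosome 9, a circle of 7 exons from 66387869 to 66414710 on the minus strand had 137 and 269 reads. Chromosome 5 gave a circle of 4 exons from 3747021 to 3772787 on the minus strand, with 252 and 117 reads. A circle of 10 exons on chromosome 16, from 94605519 to 94624975 on the plus strand, had 235 and 127 reads. On chromosome 12 a circle of 6 exons from 52748981 to 52762700 on the minus strand had 199 and 140 reads. Each of these lies downstream of a long intron, of 25880, 29809, 13050 and 29708 nt in this order. The last 3 begin later. Chromosome 4 gave 1 exon of 1970 nt as a circle (83937597 to 83939566, minus strand), with 268 and 175 reads and an upstream intron of 97226 nt. A circle of 3 exons on chromosome 19, from 41620365 to 41630191 on the plus strand, had 158 and 276 reads. Another of 3 exons on chromosome 2, from 34287523 to 34299926 on the plus strand, had 135 and 192. The 2 libraries put these 7 circles in different orders.

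Reads of 1 circle often differed between the 2 libraries. As shares of exonic reads, 260 of 519 circles (50.1%) differed by more than 2-fold, 105 (20.2%) by more than 4-fold and 20 (3.85%) by more than 10-fold. Of the 190 circles with at least 20 reads in all, 93 (48.9%) differed by more than 2-fold. With at least 20 reads in each library, 15 of 67 did (22.4%), but that condition itself removes pairs such as 1 against 50 reads. The Pearson correlation of log2 reads across the 519 circles was 0.68, a description of circles the rule had already required in both lists. The widest ratios were 1 against 50 reads for a 3-exon circle on chromosome 10 (74736762 to 74742706, plus strand) and 1 against 33 for a circle of 9 or, in the other list, 10 exons there (22857997 to 22892929, minus strand). A 4-exon circle on chromosome 4 (120843223 to 120862863, minus strand) had 1 and 27. In the other direction, a 14-exon circle on chromosome 6 (47490676 to 47527666, minus strand) had 45 and 2 reads. A 3-exon circle on chromosome 13 (15569833 to 15705717, plus strand) had 49 and 3, and a 5-exon circle on chromosome 19 (42637042 to 42658033, plus strand) had 31 and 2.

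Circles just outside the rule could be well read in the library that lists them. On chromosome 6, a 3-exon circle from 119544803 to 119580765 on the minus strand had 112 reads in total RNA 1 and 0 in total RNA 2. A 10-exon circle on chromosome 11 (61595094 to 61617289, minus strand) had 66 and 0, and a 6-exon circle on chromosome 2 (76678290 to 76681549, minus strand) had 61 and 0. Total RNA 2 gave 95 reads against 0 to a 3-exon circle on chromosome 18 (42480418 to 42483852, plus strand). It gave 78 to a 2-exon circle on chromosome 1 (162630843 to 162632591, minus strand) and 44 to a 9-exon circle on chromosome 9 (69246753 to 69264168, plus strand). Only the chromosome 18 circle was listed after RPAD, with 13 reads in RPAD 1.

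The share of exonic circles found again in the other library was larger at higher read numbers. In total RNA 1 it was 12% (95% interval 9.81 to 14.5) with 1 read, 22.2% (19 to 25.6) with 2 to 4, 34.5% (29.4 to 39.9) with 5 to 9, 35.7% (28.5 to 43.5) with 10 to 19 and 72.7% (64.8 to 79.6) with 20 or more. Total RNA 2 gave 13.6%, 25.2%, 33.3%, 44.2% and 71.3%. Even at 20 or more reads, 41 of 150 circles in total RNA 1 and 43 of 150 in total RNA 2 were not listed in the other library. Intronic circles, which consist of intron sequence from a 5′ splice site onwards, were found again in 8.36% and 9.55% of cases over all read numbers. With 5 to 9 reads their shares, 47.3% and 47.2%, were above those of exonic circles, and no test was made of this.

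**Figure D2:**
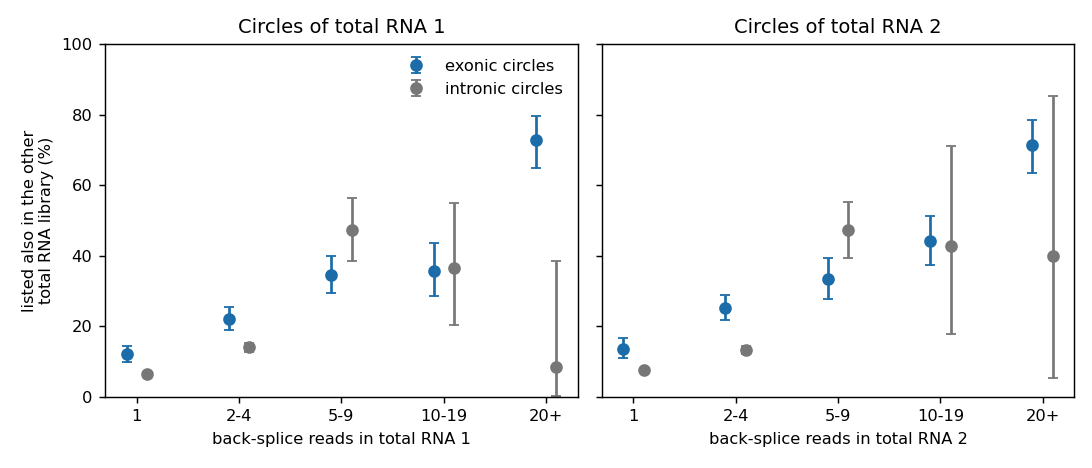
Share of circles of total RNA 1 (left) and total RNA 2 (right) that the other total RNA library also lists, in percent, by back-splice reads in the library named on the x axis. Points are shares with exact 95% intervals for exonic and intronic circles. Exonic shares go from 12% and 13.6% at 1 read to 72.7% and 71.3% at 20 or more, and the last intronic points rest on 12 and 5 circles.

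With all read numbers pooled, circles in both libraries were longer than circles in 1, while mean exon counts differed little. The median spliced length was 691 nt in each library's list, with quartiles of 363.5 and 1105 nt. Circles of 1 library only had medians of 476 and 494 nt. The difference was 206 ± 12.7 nt (SD over the 2 libraries, which share the 519 circles). Lengths below 200 nt made up 14.8% of the 519 (95% interval 11.9 to 18.2), against 23.3% (21.2 to 25.4) and 22.3% (20.0 to 24.6). With only circles of 2 to 4 reads compared, the difference was 83.75 ± 40.7 nt, less than at all read numbers. At equal read bands the median was higher for the 519 circles in 7 of 10 comparisons and lower in 3.

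The mean number of exons was 4.53 in each list for the 519 circles, against 4.39 and 4.49 for the others, a difference of 0.08 ± 0.07 (SD, n = 2 libraries). At equal read bands the direction was mostly the opposite, with the mean of the 519 circles lower in 9 of 10 comparisons and higher in 1. At 20 or more reads it was 4.98 against 6.05 exons in total RNA 1 and 4.96 against 6.74 in total RNA 2. Over circles of at least 2 reads the difference was -0.35 ± 0.0089. The longest circle was 5866 nt in the models of total RNA 1 (2 exons, chromosome 15, 82655661 to 82687714 on the minus strand), with 34 and 46 reads. In the models of total RNA 2 the same circle has 4 exons and 3763 nt. A circle within it (82681943 to 82687714, 38 and 22 reads) has 1 exon and 5772 nt or 3 exons and 3669 nt by list, and a chromosome 13 circle (89817680 to 89833106, minus strand, 6 and 2 reads) has 5687 or 5361 nt. The shortest were 84 nt on chromosome 2 (76691662 to 76691745, 1 and 4 reads) and 101 nt on chromosome 1 (74310317 to 74310417, 10 and 1 reads) and on chromosome 15 (98783882 to 98783982, 5 and 7 reads). Circles of 25, 24 and 23 exons, the highest exon counts, all came from the chromosome 2 transcript named above.

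Single-exon circles were 20.0% of the 519 in the list of total RNA 1 and 19.8% in that of total RNA 2, against 23.9% and 22.4% of circles of 1 library. The pooled difference was -3.18 ± 0.96 percentage points, but at equal read bands the share was higher for the 519 circles in 8 of 10 comparisons and lower in 2. Among circles of 2 to 4 reads, single-exon circles were 23.8% and 27.6% of those in both libraries and 15.5% and 17.7% of those in 1, a difference of 9.09 ± 1.20 points. At 1 read the shares were 33.3% and 34.6% against 38.5% and 36.0%, the same direction as the pooled difference in total RNA 1 and 2. Internal single-exon circles had a median length of 183 nt in both libraries together against 131 nt for total RNA 1 alone, and 181.5 against 135 nt in the list of total RNA 2.

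A start at exon 2 was more frequent among circles in both libraries. Of internal circles with more than 1 exon, 36.2% in the list of total RNA 1 (146 of 403, 95% interval 31.5 to 41.1) and 36.4% in that of total RNA 2 (147 of 404, 31.7 to 41.3) began there. Among circles of 1 library the shares were 26.9% (24.3 to 29.6) and 24.1% (21.4 to 26.9). The difference was 10.8 ± 2.11 percentage points (SD, n = 2 libraries), and 14 ± 0.21 points among circles of 2 to 4 reads. The share was higher for the 519 circles in 9 of 10 read bands. Starts at exon 10 or later were fewer, 18.5% and 17.9% of all 519 against 22.9% and 24.0%. These are shares of circles, which are not replicates, so no p was computed.

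The introns beside the 519 circles were longer. The intron upstream had a median of 7650 nt in the list of total RNA 1 and 8111 nt in that of total RNA 2, against 4078.5 and 3961 nt for circles of 1 library. Downstream the medians were 6705 and 6618.5 nt against 3373 and 3097.5 nt. The differences were 3861 ± 409 nt upstream and 3426.5 ± 134 nt downstream (SD, n = 2 libraries). Both flanking introns exceeded 5000 nt for 44.3% of the 519 circles (95% interval 40.0 to 48.7) and for 30.6% (28.3 to 32.9) of circles in total RNA 1 only. In total RNA 2 these were 44.5% and 27.4%. Both were below 1000 nt for 10.8% against 13.5% and 14.1%.

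First introns are often long, so starts at exon 2 were set apart. Internal circles that begin at exon 3 or later still had longer introns upstream, 5522 nt in both lists against 4056 and 3869 nt. Downstream they had 5917 and 4988 nt against 3784 and 3390 nt. For single internal exons the medians were 3682 and 3702 nt upstream against 1230 and 1657 nt, and 3478 and 3224 nt downstream against 1280 and 1380 nt. Read number moved with these lengths. Among circles of 2 to 4 reads the differences were 2040 ± 1773 nt upstream and 910 ± 973 nt downstream, each no larger than about the spread between the libraries. Over the 10 read bands the median of the 519 circles was higher in 9 for each side. Circles whose shorter flanking intron was over 5000 nt were found again in 32.7% and 39.3% of cases, and those with one below 1000 nt in 19.2% and 21.6%. With 5 or more reads the shares were 47.3% and 51.9% for the former, with 95% intervals of 41.9 to 52.8 and 46.0 to 57.8, and 48.0% and 50.5% for the latter. Those between, with a shorter intron of 1000 to 5000 nt, then had 34.0% and 35.8%. Over all read numbers, the class below 1000 nt holds 24 of the 519 circles from the chromosome 2 transcript named above, with downstream introns of at most 750 nt. Not all of these 24 had 5 or more reads. They were not set apart here.

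**Figure D3:**
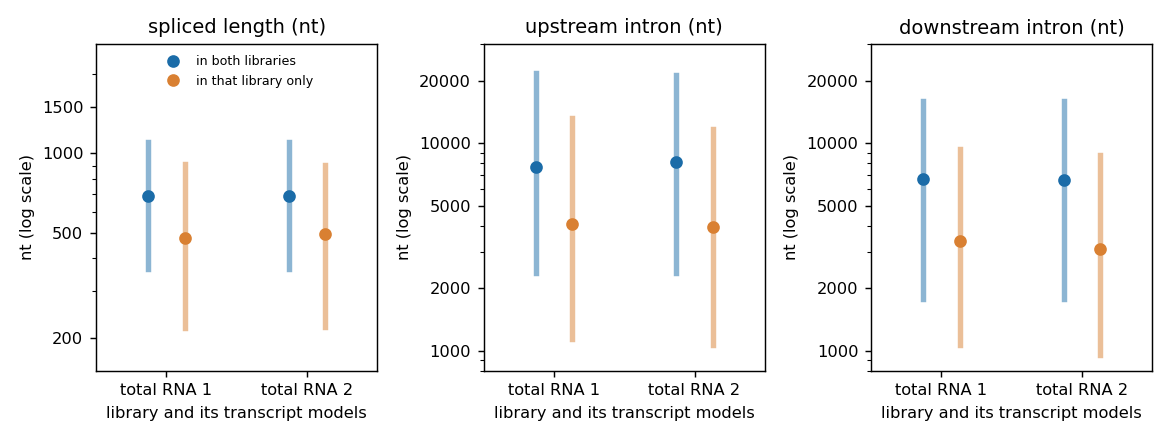
Spliced length, upstream intron and downstream intron in nt, on log scales, for the 519 circles in both total RNA libraries and for circles of 1 library only. Points are medians and bars run from the first to the third quartile, by the transcript models of each library's list. The medians of the 519 circles are higher in all 3 panels, and the quartile ranges overlap.

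The transcript model behind a circle could differ between the 2 lists. For 184 of the 519 circles the lists name different transcripts, and for 67 the number of the first exon differs. Spliced length differs for 25 circles, exon count for 17, the upstream intron for 31 and the downstream intron for 16. Length and exon count were identical for 494. Assembled models, as opposed to Ensembl-style transcripts, hosted 26.0% and 27.9% of the 519 circles and 33.1% and 32.0% of circles in 1 library only. Junctions with a score above 0, a number that no source used here explains, were 4.24% and 5.01% of the 519 and 8.79% and 9.29% of the others.

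By structure in the list of total RNA 1, the 519 circles comprise 93 single internal exons, 146 internal circles from exon 2, 257 internal circles from exon 3 or later and 23 that hold the first or last exon of their transcript. Their median reads were 3 and 3, 7 and 8, 6 and 6, and 4 and 2 in total RNA 1 and 2. The 257 later circles held 55.7% and 56.9% of the reads of all 519, and the 146 from exon 2 held 30.8% in each library.

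None of the 23 circles with a terminal exon was listed in either RPAD library. Of these, 12 had no upstream intron, 9 had no downstream intron and 2 had neither, and both lists put the same 23 in this class. The exact 95% upper limit for 0 of 23 is 14.8%, and 3 counts, the limit used here for a count of 0, would be 13%. Among the other 496 circles, 211 (42.5%, 95% interval 38.1 to 47.0) were listed in at least 1 RPAD library. The 23 had few reads for the most part, with 17 below 10 over both total RNA libraries. At 5 to 9 such reads, 0 of 7 terminal circles and 29 of 103 others were listed in RPAD. With 20 or more the counts were 0 of 3 and 112 of 187. This class was looked at after its values were seen, and no test was made.

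The most read of the 23 was a chromosome 6 circle (136821688 to 136824326, minus strand). Exons 1 to 3 form it, at 245 nt, with 97 and 91 total RNA reads and none in RPAD. A last-exon circle of 125 nt on chromosome 11 (104448399 to 104448523, plus strand) had 24 and 12 reads, and a circle of exons 1 to 5 on chromosome 5 (148672204 to 148684235, plus strand) had 20 and 15. Terminal-exon circles in 1 total RNA library gave 0 of 79 in RPAD for total RNA 1, with an exact 95% upper limit of 4.56% and 3 counts at 3.80%, and 3 of 71 for total RNA 2. Of all 2850 circles in 1 total RNA library, 2611 (91.6%) were in neither RPAD library, so few were listed whatever their exons. Nothing is read from these counts. RPAD did list terminal-exon circles, 22 of 499 exonic circles in RPAD 1 and 45 of 777 in RPAD 2. Of these, 22 and 42 were not listed in total RNA.

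Several circles could share an end. The 519 circles came from 381 host groups, that is, sets of transcripts linked by a shared circle or intron. Of these groups 300 gave 1 such circle, 54 gave 2 and 27 gave 3 or more. The start of the circle, its acceptor, was shared with another of the 519 for 118 circles (22.7%, 95% interval 19.2 to 26.6), and the donor for 64 (12.3%, 9.63 to 15.5). Up to 8 circles used 1 acceptor and up to 4 used 1 donor. Of the 2850 circles in 1 library only, 295 (10.4%) shared an end with one of the 519, and 625 (21.9%) came from the same host groups. Those that shared an end had a median of 3 reads in each library, and the rest had 2.

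The chromosome 2 transcript on the minus strand (ENSMUST00000111882) gave 24 of the 519 circles, between 76678290 and 76706142. They held 2464 and 2508 reads in total RNA, 93.9% and 94.9% of the exonic reads of this host, while 41 further exonic circles were listed in 1 total RNA library. These 24 circles used 10 acceptors and 11 donors. Exon 124 started 8 of them, and exons 119 and 131 started 4 each. Exons 128, 133 and 141 each ended 4. The 8 from exon 124 ran to exons 126, 128, 133, 134, 138, 141, 142 and 148. The introns beside the 24 circles were short, with a median of 453 nt upstream (162 to 1797) and 202 nt downstream (141 to 750). All 24 had a spliced length that is a multiple of 3. Without this host that held for 37.6% of the remaining 495 circles by the list of total RNA 1, and for 40.5% of circles in total RNA 1 only (620 of 1530). With this host the latter count was 637 of 1548, so most of its circles in total RNA 1 only had such a length too. RPAD listed 15 of the 24, 10 of them in both libraries and 5 in 1.

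**Figure D4:**
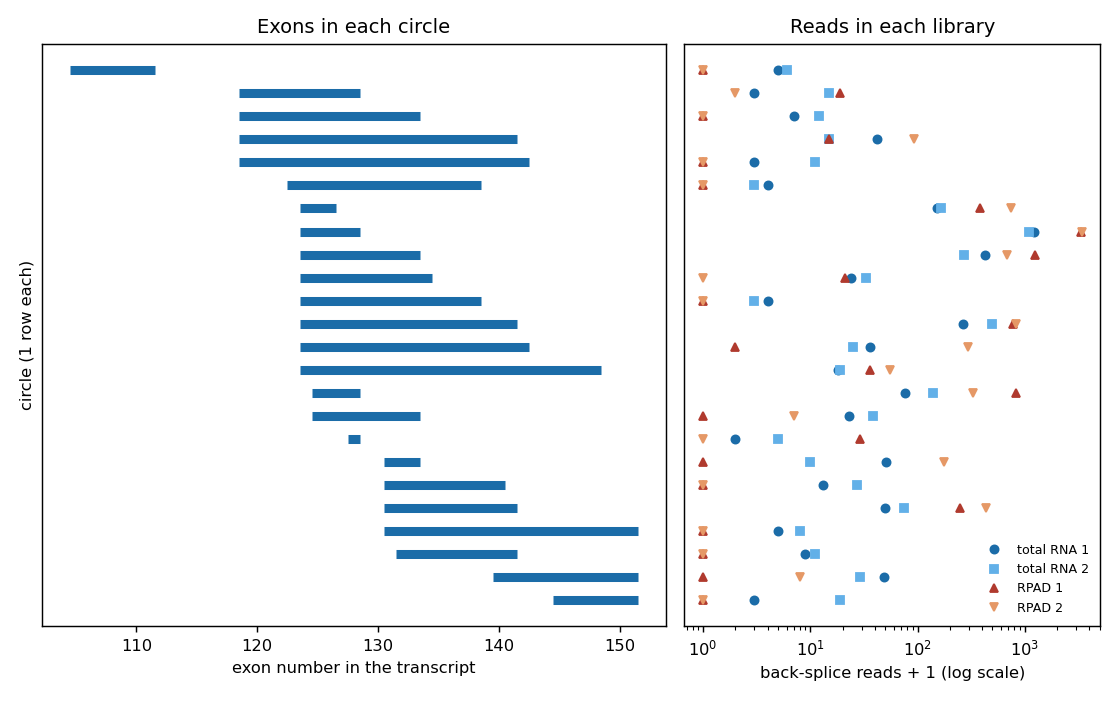
The 24 circles of the chromosome 2 host that both total RNA libraries list, 1 per row. The left panel shows the exons each circle spans by exon number, and the right panel its back-splice reads plus 1 in each of the 4 libraries on a log scale, where 1 stands for 0 reads. The 8 circles that begin at exon 124 include the 3 with most total RNA reads, and 9 circles have 0 reads in both RPAD libraries.

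The next host groups each gave 5 of the circles. On chromosome 13 plus strand, 5 circles began at exon 2, at 105084527, and ended at exons 7, 9, 10, 11 and 14. In total RNA 1 and 2 they had 80 and 71, 25 and 23, 8 and 4, 12 and 29, and 3 and 8 reads, so the shortest was the most read in both. Their intron upstream is the same, 6782 nt, and the introns downstream run from 8701 to 32964 nt. On chromosome 19 plus strand, between 45009423 and 45033570, 5 circles used 3 acceptors and 3 donors. The circle of exons 4 to 7 had 32 and 97 reads, that of exons 4 to 6 had 15 and 65, and the other 3 had 1 to 9. Of these 5 circles 4 were listed in neither RPAD library, and the fifth had 5 reads in RPAD 2.

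After RPAD, circles of both total RNA libraries were listed more often than circles of 1. RPAD 1 listed 127 of the 519 (24.5%, 95% interval 20.8 to 28.4) and 121 of the 2850 (4.25%, 3.54 to 5.05). RPAD 2 listed 156 (30.1%, 26.1 to 34.2) and 147 (5.16%, 4.37 to 6.03). The difference was 22.6 ± 3.31 percentage points (SD, n = 2 RPAD libraries). The direction was the same in all 10 comparisons at equal bands of total RNA reads for each RPAD library. At 1 read in total RNA 1 the shares were 11.8% (6.05 to 20.2) against 2.06% (1.13 to 3.43) in RPAD 1. With 20 or more they were 52.3% (42.5 to 61.9) against 26.8% (14.2 to 42.9). In RPAD 2 the latter were 56.9% (47.0 to 66.3) and 12.2% (4.08 to 26.2). A circle of both libraries has reads in the second as well, so a band of reads in 1 library does not equalise the reads over both.

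**Figure D5:**
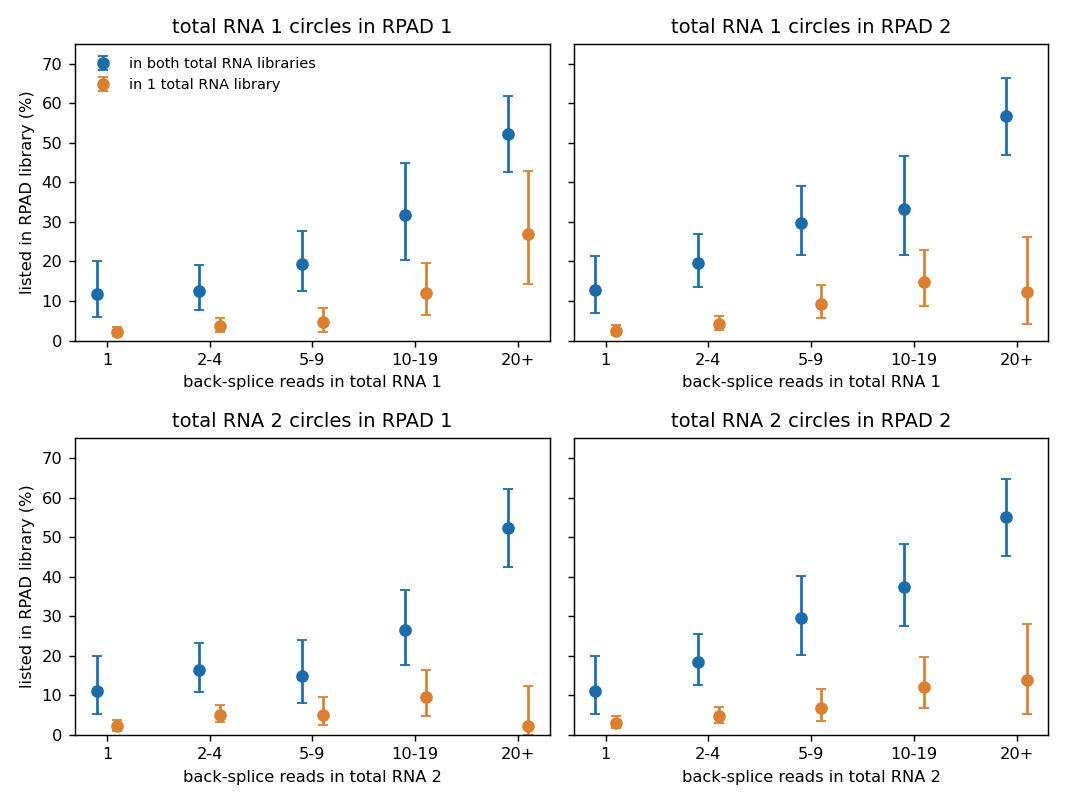
Share of circles listed in RPAD 1 (left column) and RPAD 2 (right column), in percent, by back-splice reads in total RNA 1 (top row) and total RNA 2 (bottom row). Points are shares with exact 95% intervals for circles in both total RNA libraries and for circles in 1. The former are higher in every band of the 4 panels, and the intervals overlap in some bands.

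The 519 circles took 51.4% and 50.7% of exonic reads in RPAD 1 and 2, as 25.5% and 20.1% of exonic circles listed there. Circles of 1 total RNA library took 21.7% and 15% of reads, as 24.2% and 18.9% of circles. Where listed, the median was 58 and 79 reads for the 519 and 24 and 30 for the others. Over both RPAD libraries, 72 of the 519 (13.9%) were in both, 139 (26.8%) in 1 and 308 (59.3%) in neither. Of the 2850 circles in 1 total RNA library, 29 (1.02%) were in both, 210 (7.37%) in 1 and 2611 (91.6%) in neither. Among the 519, circles in both RPAD libraries had a median of 30 and 24.5 reads in total RNA, those in 1 had 7 and 8, and those in neither had 4 and 4. By the models of total RNA 1, the median spliced length was 865.5, 780 and 604 nt in this order. The upstream introns had medians of 13945.5, 11302 and 5567.5 nt. Reads, length and introns moved together here, and their separate parts were not tested.

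Among circles in both RPAD libraries, the highest mean share of RPAD exonic reads was that of the chromosome 5 circle from 3747021, with 3393 and 3881 reads. The chromosome 2 circle of exons 124 to 128 had 3371 and 3383 and the single-exon circle on chromosome 4 had 935 and 2281. On chromosome 5 a second circle, of 3 exons and 3539 nt (107063850 to 107067654, minus strand), had 997 and 1466 RPAD reads, with 110 and 39 before treatment. The chromosome 2 circle of exons 124 to 133 had 1244 and 686. These 5 were picked among circles that both RPAD libraries list, and 4 of them, all but the 3539 nt circle, are also among the 10 with the highest share in total RNA.

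Circles with many total RNA reads could be at 0 in both RPAD libraries. A 4-exon circle from exon 2 on chromosome 4 (16079064 to 16085577, minus strand) had 147 and 121 total RNA reads. The chromosome 6 circle of exons 1 to 3 follows, with 97 and 91. A circle of 7 or, by the other list, 6 exons on chromosome 9 (22448189 to 22483508, plus strand) had 67 and 66, a single-exon circle on chromosome 4 (108151478 to 108152346, plus strand) had 49 and 81, and the chromosome 19 circle of exons 4 to 7 had 32 and 97. Against 3 reads over both RPAD libraries and with exonic reads as the total, these shares were at least 418-, 293-, 208-, 203- and 201-fold lower in RPAD. The bounds cover the counting error of the 0 reads alone.

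In the edgeR quasi-likelihood test of RPAD against total RNA over all circles, 323 of the 519 passed the low-count filter, 128 of them with 0 reads in both RPAD libraries. The test called 0 of the 323 at a Benjamini-Hochberg adjusted p under 0.05, as it called 0 of all 924 circles tested (0%). At an unadjusted p under 0.05, 129 of the 323 were lower in RPAD and 1 was higher. Over all 924 circles tested, 146 (15.8%) were lower and 16 (1.73%) were higher. DESeq2 called 70 of the 242 to which it gave an adjusted p, all lower in RPAD, beside 20.2% of all circles with an adjusted p. Without its independent filtering it called 0. As a median, the log2 fold change was -2.66 for the 323 circles and -0.15 for all tested, and both stayed so with circles at 0 in a whole group put at their bound. Reads in both total RNA libraries chose these circles and carried many of them past the filter, so nothing is read from their counts or their median against all circles. The other 196 circles did not pass the filter and were not tested. Not all of them had few reads in all, as the chromosome 10 circle from 74736762 had 1 and 50.

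Among circles higher in RPAD, the smallest p was found at a chromosome 10 circle (7421408 to 7422918, plus strand) made of 1 exon of 1511 nt. Reads went from 6 and 1 to 605 and 759 after RPAD. That is 5.05 on the log2 scale (SE 1.98; adjusted p in edgeR 0.270). A 7-exon circle from exon 2 on the X chromosome (35777444 to 35795317, minus strand) had 1, 4, 83 and 639 reads, a log2 fold change of 4.89 (SE 2.36) and an edgeR adjusted p of 0.465. Its log2 fold change was 2.28 without RPAD 2 and 1.43 with score 0 junctions alone. With each library left out in turn, the log2 fold change of the chromosome 10 circle ran from 4.24 to 7.03. With score 0 junctions alone that circle was not among those tested, so it has no value there. The chromosome 5 circle from 3747021 had a log2 fold change of 1.78 (SE 0.87), from 1.25 to 2.61 with a library left out, and an edgeR adjusted p of 0.484. Among circles lower in RPAD, the chromosome 4 circle from 16079064, the chromosome 6 circle from 136821688 and a 105 nt single-exon circle on chromosome 7 (134356932 to 134357036, plus strand, 6 and 8 reads in total RNA) all had 0 in RPAD. Their edgeR adjusted p was 0.179. The chromosome 7 circle was at least 21.9-fold lower, a bound that covers counting error alone. Without RPAD 1 each of these 6 circles passed the threshold in edgeR, with adjusted p from 0.000239 to 0.0490, and the spread then came from the total RNA pair. Without RPAD 2, 4 of the 6 passed, and the X chromosome circle (edgeR adjusted p 0.414) and the chromosome 5 circle (0.291) did not. Without a total RNA library, adjusted p ran from 0.955 to 1.00 over the 6.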

How the data were processed

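The deposited lists, 1 per library, give each circle its raw count of back-splice reads, its exon sizes and its flanking introns, per the file headers. The deposited score of each junction runs from 0 to 3; how the authors made it is not stated per the file headers. The submitters' processing notes name mm9, TopHat, cutadapt and Cufflinks 2.2.1; none of the sources used here names the circle caller. Per the labels' protocols, cDNA was amplified and libraries had 17 PCR cycles. Groups and replicate numbers come from the sample titles.

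Circles absent from a list were given 0 reads. Spliced length is the sum of exon sizes, and exons are counted in transcript order. Structure was read from each library's own list. Abundance was tested over all circles with edgeR 4.0.16 in R 4.3.3 (quasi-likelihood F test, TMM, filterByExpr with minimum count 5 and total 10, group only, Benjamini-Hochberg adjusted p under 0.05); the SE is the log2 fold change over the square root of F. The method was tested on simulated data at a set spread, not one taken from these libraries. How well it finds changes at their own spread was not tested. Library totals alone, other count filters, a replicate block, leaving out libraries, score 0 junctions and DESeq2 1.42.0 were alternatives; DESeq2 without independent filtering was added after seeing the data. Python 3.11.15, pandas 2.3.3, numpy 2.4.6, scipy 1.17.1 and matplotlib 3.10.9 were used.

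Members, lists and rules were chosen with earlier results of these data known. The naming rule took the 10 circles with the highest share, extremes of length, exon count and ratio between libraries, 5 each for RPAD, 3 per direction by p, 3 per library just outside the rule and 3 host groups. Terminal-exon circles, shared ends and multiples of 3 were examined after seeing the data. The lists name 8067 transcripts, 0 of which matched the name tables, so the gene lists were not analysed. No sequence of the mm9 build was used.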

Additional observations from a re-analysis of the deposited data

How the results depend on the processing

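Requiring at least 2 reads in a library moved the read share of the circles in both to 59.9%, the length difference to 121 nt, the exon count difference to -0.35, the single-exon difference to 2.87 percentage points and the RPAD difference to 26.4 points. At 2 to 4 reads these differences were 83.8 nt, -0.34 exons, 9.09 points and 12.4 points, the exon 2 difference was 14 points, and the intron differences were 2040 nt upstream and 910 nt downstream. With score 0 junctions alone the length difference was 186 nt, the single-exon difference -1.90 points and the RPAD difference 19.2 points. With 1 circle per host group the length difference was 176 nt, the exon count difference -0.040, and the introns differed by 4285 nt upstream and 3767 nt downstream. Without the chromosome 2 host the read share was 46.7%, the length difference 186 nt, the exon count difference -0.062, and the introns differed by 4674.5 and 3798 nt. The sign of the length, exon 2, intron and RPAD differences held in each of these settings, and that of the exon count and single-exon differences did not. The causes were not tested.

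With 1 library alone the read share ran from 61.3% to 63.6%, the length difference from 197 to 215 nt, the exon count difference from 0.03 to 0.13, the single-exon difference from -3.86 to -2.50 points, the exon 2 difference from 9.35 to 12.3 points, the intron differences from 3571.5 to 4150 nt upstream and 3332 to 3521 nt downstream, and the RPAD difference from 20.2 to 24.9 points. DESeq2 called 70 of the circles. Leaving out a library gave 0 to 175 calls, 0 without either total RNA library, 142 without RPAD 1 and 175 without RPAD 2, where the lone library was assumed to vary like the other group. The median log2 fold change of all circles tested was -0.15 with TMM, 0.036 with library totals, 0.19 in DESeq2, 0.082 with at least 10 reads in 2 libraries, 1.68 with no filter, -0.73 with score 0 junctions, -1.04 with the replicate block, -0.24 and 0.14 without total RNA 1 or 2, and -1.54 and -1.17 without RPAD 1 or 2. That of the tested circles in both libraries ran from -7.16 without RPAD 2 to -1.37 with at least 10 reads in 2 libraries. Deviations of same-numbered libraries correlated at 0.05. Libraries of a group correlated at only 0.40 in total RNA and 0.01 in RPAD, so noise could hide pairing and nothing is read from that value. The replicate block called 0 of the 323 circles and 0 of all 924. The number of circles was 377 to 522 in the other settings; it has no value with a library left out, since the rule needs both.

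With 2 libraries a group, most circles at few reads and no molecular identifiers, a 0 in a library limits reads only, and absence from a list was not told apart from low sampling.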
